A study of Mus musculus with 18 samples.

Results

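Induced intestinal stem cells gave rise to budding organoids (iISC organoids, arrays 1 to 3), which were compared with budding organoids grown from adult intestinal crypts (crypt organoids, arrays 1 to 3). These 6 arrays were taken by their titles from the 18 one-colour microarrays of the series. The series follows the direct conversion of mouse fibroblasts towards intestinal progenitors, and every array carried RNA of C57BL/6 mice. Its other groups, with 3 arrays each, are organoids from induced fetal intestinal progenitor cells (iFIPC organoids), organoids from fetal intestine (FI organoids), hepatocyte-like cells made from fibroblasts, and mouse embryonic fibroblasts (MEFs), which are not labelled as the cells that were converted. The labels used here give neither the age of the animals nor the factors introduced, and they do not say whether the 3 arrays of a group came from separate cultures, conversions or animals. The p-values therefore measure only the spread between these arrays, part of which may be technical.

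A budding organoid is a closed epithelium in culture whose buds hold stem cells and Paneth cells, while the body between them carries absorptive, goblet, enteroendocrine and tuft cells. Epithelium grown from a stretch of gut is known to keep in culture part of the regional programme of that stretch, for instance duodenal transcription factors or the bile acid uptake of the ileum. Fibroblasts keep a different positional record, a body-region pattern of Hox and other homeobox genes set in the embryo. A culture of converted fibroblasts can therefore be set against native organoids for its intestinal identity, its region along the gut, and genes of its former cell type.

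Levels are given on a log2 scale on which each array has its own 75th percentile of signal at 0, so that 1 unit is a doubling of signal. Because each probe binds with its own strength, levels are compared between arrays and not between genes. A change is the mean level in iISC organoids minus that in crypt organoids, with its standard error (SE) from a limma fit over the 12 organoid arrays, and adjusted p-values are Benjamini-Hochberg values over all genes tested. Genes were called at an adjusted p under 0.05 and a change of at least 1 log2 unit. "At least N-fold" is a bound, used where none of the arrays of the dimmer group measured the gene well above background. It holds for the 1 probe that stands for the gene, and other probes of the gene may change less. In these bulk samples, fewer cells of a type and less RNA per cell cannot be told apart.

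The arrays had a 75th percentile of 929.7 to 1049.6 intensity units, and 56.14 to 63.14% of their gene probes were well above background. Crypt arrays 2 and 3 stood closer to each other (Pearson r = 0.9953 over 14511 genes) than any other pair, but their single-spot probes still differed by more (robust SD of 0.184 log2 units) than the 0.094 to 0.097 expected from the spread of repeated spots on the crypt arrays. Repeated hybridisations of 1 RNA could exceed spot noise as well, so this does not tell whether they are separate samples, and they were counted separately, as labelled. Without crypt 2 or without crypt 3, the number of called genes given below was 162 or 168. No slide held both groups. The 3 iISC arrays shared a slide with iFIPC array 2, crypt arrays 2 and 3 shared one with iFIPC arrays 1 and 3, and crypt array 1 shared one with the FI arrays. A value within a slide does not exist for the comparison, and slide and group cannot be told apart within the 6 arrays. With slide as a term over all 12 organoid arrays, where the iFIPC and crypt groups link the slides, all 464 genes called below kept their direction and 435 kept a change of at least 1 log2 unit, but only 36 genes were called, 23 of them among the 464. The median SE of the 464 genes was 0.70 in that fit, against 0.39 in the fit used here. Xist, the RNA of the inactive X chromosome, had levels of 4.16, -7.93 and -8.31 on iISC arrays 1, 2 and 3, against 4.10, -6.87 and -6.60 on crypt arrays 1, 2 and 3. In each group array 1 thus stood apart from arrays 2 and 3, and the 4 Y-linked genes on the array were at background on array 1 of each group. The mean level over Xist and these 4 genes was -5.78, -1.85 and -1.93 on iISC arrays 1, 2 and 3, and -6.29, -1.70 and -1.77 on the crypt arrays. Array 1 of each group thus did not carry the same RNA as arrays 2 and 3. These are values of different sexes within each group, which the labels do not give.

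Most of the transcriptome was alike in both kinds of organoid. Of 13603 genes tested, 464 (3.41%) were called, 283 (2.08%) higher and 181 (1.33%) lower in iISC organoids, and 89.9% of the tested genes had a change under 1 log2 unit in either direction. The median change over all tested genes was -0.008. Correlations between an iISC and a crypt array were 0.9534 to 0.9663, against 0.9723 to 0.9792 between iISC arrays and 0.9769 to 0.9953 between crypt arrays. Among the called genes, 258 changed by at least 2 log2 units and 72 by at least 4. Whether called or not, 51 genes were well above background on all iISC arrays and no crypt array, and 102 genes the other way round. The arrays of the groups did not overlap for 3473 genes (25.5%).

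**Figure D1:**
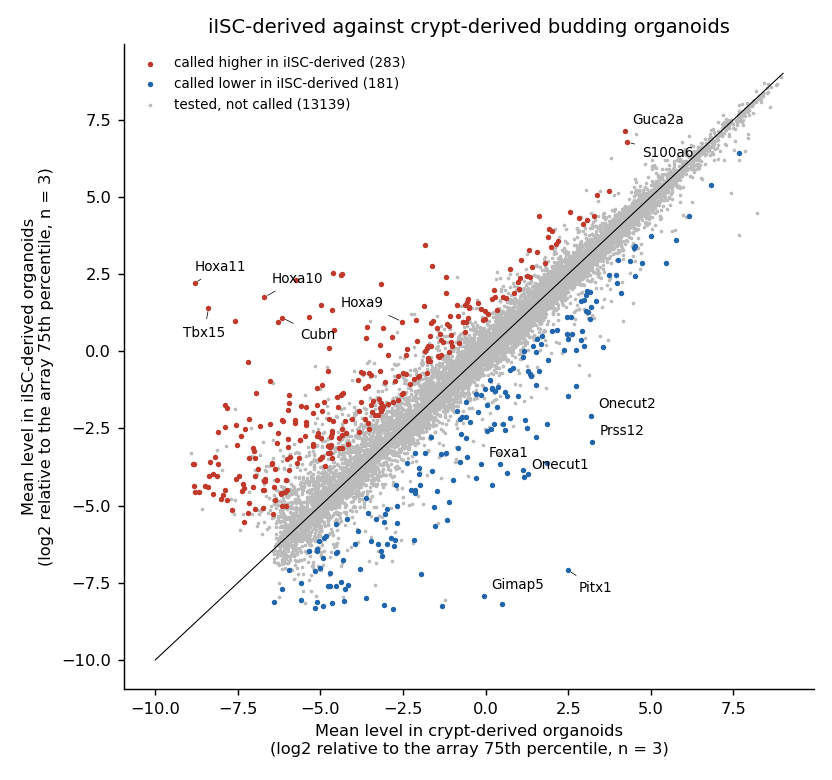
Mean level of every tested gene in iISC organoids (vertical axis, n = 3) against crypt organoids (horizontal axis, n = 3), both as log2 relative to the array 75th percentile, with the 283 genes called higher and the 181 called lower in colour. Most genes lie along the diagonal, and Hoxa11 and Tbx15 on one side and Pitx1 on the other lie far from it.

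The genes printed next carry the account and are shown by the 250 bases before their RefSeq start (RefSeq, GRCm38.p6), 5′ to 3′ on the strand of the gene. Hoxa11 and Hoxa9 are the HoxA genes called under every setting tried, Onecut1 and Cyp2b10 are lower genes of the proximal intestine, and Slc10a2 is a higher gene of the ileum. The windows are chr6:52245811-52246060 (minus strand) for Hoxa11, chr6:52227371-52227620 (minus) for Hoxa9, chr9:74861671-74861920 (plus) for Onecut1, chr8:5105288-5105537 (minus) for Slc10a2 and chr7:25897408-25897657 (plus) for Cyp2b10. Capitals mark CG dinucleotides, the sites at which cytosine methylation is placed in mammals.
Hoxa11: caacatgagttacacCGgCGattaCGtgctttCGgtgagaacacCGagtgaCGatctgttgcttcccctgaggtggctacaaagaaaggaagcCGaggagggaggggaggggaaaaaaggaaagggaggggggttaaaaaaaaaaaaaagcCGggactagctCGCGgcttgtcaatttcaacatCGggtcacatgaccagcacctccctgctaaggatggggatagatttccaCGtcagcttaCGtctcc
Hoxa9: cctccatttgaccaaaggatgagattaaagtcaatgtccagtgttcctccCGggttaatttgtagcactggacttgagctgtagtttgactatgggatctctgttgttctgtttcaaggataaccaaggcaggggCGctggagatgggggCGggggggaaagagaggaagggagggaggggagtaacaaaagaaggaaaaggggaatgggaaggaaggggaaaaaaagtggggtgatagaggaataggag
Onecut1: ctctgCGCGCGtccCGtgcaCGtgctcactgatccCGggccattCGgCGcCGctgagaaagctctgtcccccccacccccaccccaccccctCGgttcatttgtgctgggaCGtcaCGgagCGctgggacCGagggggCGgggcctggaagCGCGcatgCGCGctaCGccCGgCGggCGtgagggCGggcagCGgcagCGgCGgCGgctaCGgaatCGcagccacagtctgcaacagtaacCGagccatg
Slc10a2: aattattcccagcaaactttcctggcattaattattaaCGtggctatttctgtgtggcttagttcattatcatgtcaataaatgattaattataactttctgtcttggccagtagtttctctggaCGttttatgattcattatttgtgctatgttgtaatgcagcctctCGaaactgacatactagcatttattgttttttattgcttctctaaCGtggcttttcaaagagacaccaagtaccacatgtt
Cyp2b10: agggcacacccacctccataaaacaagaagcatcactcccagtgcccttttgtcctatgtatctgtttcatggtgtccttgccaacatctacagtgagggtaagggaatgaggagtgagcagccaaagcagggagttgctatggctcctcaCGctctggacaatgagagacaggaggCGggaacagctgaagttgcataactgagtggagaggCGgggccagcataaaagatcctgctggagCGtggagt

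The Onecut1 window holds 31 CG dinucleotides and that of Hoxa11 13, while those of Hoxa9, Slc10a2 and Cyp2b10 hold 3, 4 and 4. The core motif of the caudal factors (TTTATNG, searched on both strands) occurs 3 times in the Slc10a2 window, once in that of Cyp2b10 and in none of the other windows. It occurs in 7.0% of the windows of the 10876 tested genes that have one. The GATA motif (AGATAA, both strands) occurs in none of the windows shown and in 6.6% of those of the tested genes. These are descriptions of the sequences, with no test.

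Of the factors of the intestinal core, Cdx2, Hnf4a and Foxa3 were at like levels in both groups, while Gata6 was lower on its brightest probe. Cdx2, the caudal homeobox factor that sets intestinal identity, had levels of 5.12, 5.18 and 5.52 on the iISC arrays, against 4.95, 5.21 and 5.22 on the crypt arrays (change 0.15 ± 0.21 SE, adjusted p = 0.736). The groups overlap, and the change is within the spread between arrays. Hnf4a, a nuclear receptor of liver and gut epithelium, differed by 0.07 ± 0.22, and Foxa3, a forkhead factor of endoderm, by 0.09 ± 0.24. Gata6, a zinc-finger factor of the intestinal epithelium, had levels of 3.08, 3.14 and 2.66 in iISC organoids, against 3.76, 4.10 and 3.95 in crypt organoids. Its change of -0.98 ± 0.23 (adjusted p = 0.0396) lay just under the required size, so it was not called, although the groups do not overlap. These values are of the brightest probe. The 3 tested probes of Gata6 disagreed in sign, with changes from -0.98 to 1.69, and so did the 3 of Hnf4a, from -0.09 to 0.61. None of these probes was called. Hnf4a, Foxa3, Gata6 and Cdx2 together are known as a set of factors that converts fibroblasts to intestinal progenitors, and none of the 4 was called. Probes do not separate an introduced copy from the native gene unless they lie outside it, which was not tested.

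Among 32 tested endoderm and intestinal transcription factors, 1 was called higher and 2 lower (9.38%, against 3.41% of all tested genes called), with a median change of -0.04. For 13 of the 32 the groups did not overlap (against 25.5% of all tested genes). Of 32 tested epithelial genes 1 was called (3.12%, against the same 3.41%). It was Ovol2, a repressor of mesenchymal genes (change -1.52 ± 0.26, adjusted p = 0.0134). Cdh1, the epithelial cadherin, differed by 0.20 ± 0.12 and Vil1, the actin bundler of microvilli, by 0.04 ± 0.12. Klf4, a factor of differentiated epithelium, was the endoderm factor called higher (1.44 ± 0.23, adjusted p = 0.0106), and its levels of 5.09 to 5.26 in iISC organoids lay above the 3.51 to 3.86 of crypt organoids. Nr1i3, a nuclear receptor that senses xenobiotics, was lower (-1.15 ± 0.26, adjusted p = 0.0377), and so was Foxa1, described below. The call of Klf4 held without any single array, that of Ovol2 was lost without crypt 2, and that of Nr1i3 without any array other than iISC 3.

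Genes that position cells along the body axis included those with the largest changes. Of the 11 HoxA genes 10 were tested, and 6 rose in iISC organoids (60%, against 2.08% of all tested genes called higher). The median change of the 10 was 3.07. Hoxa11, a homeobox gene of the posterior trunk and limb, had levels of 2.50, 1.71 and 2.40 on the iISC arrays, against -9.02, -8.56 and -8.84 on the crypt arrays. All crypt arrays were at background, so that the rise of Hoxa11 was at least 454-fold (adjusted p = 2.82e-05). Its probe lies at chr6:52192107-52192166 on mm9 (minus strand).

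Hoxa10, the neighbouring posterior gene, had levels of 1.90, 1.69 and 1.66 in iISC organoids, against -8.65, -4.63 and -6.81 in crypt organoids, where 1 array was above background (change 8.45 ± 0.95, adjusted p = 0.00169). Hoxa9 had levels of 0.93, 1.14 and 0.80, against -2.58, -2.34 and -2.66 (3.48 ± 0.15, adjusted p = 3.69e-06), and was measured above background on all 6 arrays. For each of these genes the lowest iISC array lay well above the highest crypt array. Hoxa7 was higher by 4.38 ± 1.03 (adjusted p = 0.0404), with levels of 2.18, 3.42 and 2.68 in iISC organoids, against -3.08, -1.27 and -0.51 in crypt organoids. Hoxa13, the most posterior gene of the cluster, was at least 5.6-fold higher (adjusted p = 0.0146), at -4.22, -5.43 and -2.77 on the iISC arrays. Hoxa5 was higher by 2.73 ± 0.58 (adjusted p = 0.0294).

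The other 4 tested HoxA genes were not called. Hoxa2 differed by 1.26 ± 0.52 (adjusted p = 0.196) and Hoxa3 by 0.24 ± 0.11. Hoxa4 and Hoxa6 differed by -0.24 ± 0.43 and 0.27 ± 0.29, with overlapping groups. The calls of Hoxa9, Hoxa10 and Hoxa11 held without any single array. That of Hoxa7 was lost without any one of the 6, that of Hoxa5 without any array other than iISC 1, and that of Hoxa13 without crypt 3. Between 3 and 5 HoxA genes were called when an array was left out.

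**Figure D2:**
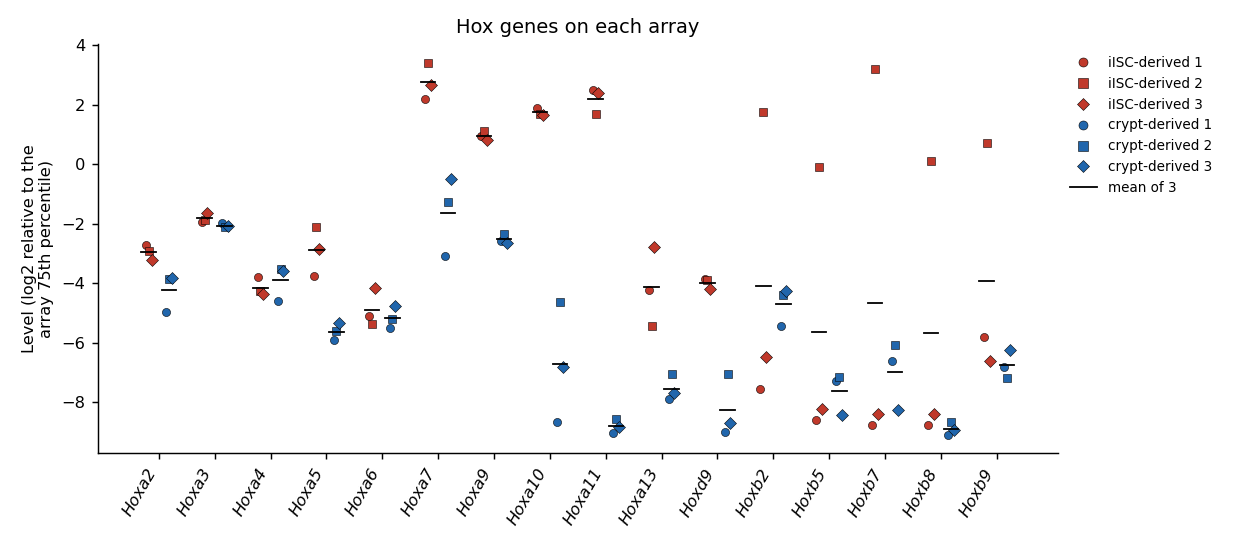
Level of Hox genes (log2 relative to the array 75th percentile) on each of the 3 iISC arrays (red, left of each gene) and the 3 crypt arrays (blue, right), with the mean of 3 as a line. Hoxa9, Hoxa10 and Hoxa11 separate the groups, whereas Hoxb2, Hoxb5, Hoxb7, Hoxb8 and Hoxb9 are high on iISC array 2 alone.

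Few genes of the other Hox clusters could be tested. Hoxd9 was the one HoxD gene tested, and its rise in iISC organoids was at least 6.25-fold (adjusted p = 0.00105), with levels of -3.86, -3.89 and -4.18, against -9.01, -7.05 and -8.69 in crypt organoids. None of 3 tested HoxB genes and none of 2 tested HoxC genes was called. Several HoxB genes were high on a single iISC array. Hoxb7 had a level of 3.19 on iISC array 2, against -8.75 and -8.39 on iISC arrays 1 and 3 and -6.62, -6.08 and -8.25 on the crypt arrays. On iISC array 2, Hoxb2 had a level of 1.76, Hoxb9 of 0.72, Hoxb8 of 0.12 and Hoxb5 of -0.08, each at least 4 units above the other 5 arrays. These genes were picked after their values were seen.

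Among 10 tested regulators of limb and trunk mesoderm, 2 rose and 2 fell (40.0% called, against 3.41% overall). Tbx15, a T-box factor of trunk and limb mesenchyme, had levels of 1.57, 1.64 and 0.98 in iISC organoids, against -8.82, -8.37 and -7.98 in crypt organoids. Every crypt array was at background, so that the rise was at least 260-fold on the brightest probe (adjusted p = 2.86e-06). All 3 tested probes of Tbx15 were called higher, with changes from 4.98 to 9.78. Foxc1, a forkhead factor of mesoderm, was higher by 5.57 ± 1.07 (adjusted p = 0.0195), a call lost without iISC 2, iISC 3, crypt 2 or crypt 3.

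Pitx1 ran the other way. This homeobox factor of hindlimb and gut had levels of -8.80, -8.03 and -4.46 in iISC organoids, against 2.46, 2.65 and 2.37 in crypt organoids (-9.59 ± 0.92, adjusted p = 0.000962). One iISC array was above background for it. All iISC arrays lay more than 6 units below all crypt arrays. The brightest probe of Tbx15 lies at chr3:99157901-99157960 (plus strand) and that of Pitx1 at chr13:55926417-55926476 (minus), both on mm9.

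The MEF arrays give the levels of these genes in fibroblasts, though they were scanned and extracted with other versions of the equipment. Hoxa11 had levels of 2.35, 1.64 and 1.59 there and Tbx15 of 2.39, 2.20 and 2.21, within 1 unit of the iISC organoids for Hoxa11 and above them for Tbx15. Pitx1 had MEF levels of 2.05, 1.75 and 1.68, unlike the iISC organoids, and Hoxa9 of -0.54, -0.49 and -0.49. Of the genes called higher, 83.4% were well above background on all MEF arrays, against 90.0% of all tested genes and 58.6% of the genes called lower.

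Genes of the proximal small intestine were lower as far as they were called. Of 20 tested, 3 fell and none rose (15%, against 1.33% of all tested genes called lower), and the median change was -1.51. Fgf15 is on this list and also on the ileum list below, so the lists are not separate. The called members were Onecut2, Onecut3 and Cyp2b10. Onecut1, a duodenal and hepatic cut-homeobox factor that the list does not hold but that was among the largest falls, had levels of -5.91, -2.54 and -3.75 in iISC organoids, against 1.37, 0.94 and 1.17 in crypt organoids (-5.22 ± 0.95, adjusted p = 0.0159). Onecut2, its paralogue, fell by 5.26 on the log2 scale (SE 0.95, adjusted p = 0.0157), and Onecut3, called in the same direction, fell by 1.97 (SE 0.35, adjusted p = 0.0148). All iISC arrays lay below all crypt arrays for the 3 Onecut genes. Cyp2b10, a cytochrome P450 of the proximal gut and liver, had levels of -0.59, 0.23 and 0.44, against 2.60, 2.51 and 1.98 (-2.34 ± 0.41, adjusted p = 0.0146).

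Foxa1, a forkhead pioneer factor of endoderm, had levels of -3.75, -3.88 and -3.37 in iISC organoids, against 0.01, -0.34 and -0.08 in crypt organoids (-3.53 ± 0.39, adjusted p = 0.00151). The groups were apart by more than 3 units, and its neighbour Ttc6 was lower too (-3.14 ± 0.34, adjusted p = 0.00151). Some well known proximal genes were not called. Gata4, the factor of the duodenum and jejunum, had levels of -3.19, -3.35 and -2.82, against -0.72, -0.95 and -1.01, without overlap (-2.22 ± 0.60, adjusted p = 0.0654). Pdx1, the duodenal and pancreatic homeobox factor, had levels of -7.95, -5.79 and -2.96, against 0.08, -2.94 and -1.47 (adjusted p = 0.135). Fabp1, the fatty acid binding protein of the proximal gut, had levels of 3.40, 7.16 and 2.86, against 8.03, 8.34 and 8.27 (adjusted p = 0.219). For these genes the iISC arrays varied widely or the SE was large.

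Genes of the ileum and of bile acid handling were higher as far as they were called. Of 13 tested, 5 rose and none fell (38.5%, against 3.41% overall), with a median change of 1.27. Slc10a2, the apical bile acid transporter of the ileum, had levels of 2.08, 1.37 and 0.99 in iISC organoids, against -5.68, -4.86 and -4.40 in crypt organoids (6.46 ± 1.23, adjusted p = 0.0192). Cubn, the vitamin B12 receptor of the ileum, had levels of 1.13, 1.71 and 0.40, against -5.29, -6.06 and -7.12 (7.24 ± 0.99, adjusted p = 0.0052). Both separated the groups by more than 5 units between the nearest arrays. Pyy, the hormone of distal L cells, had levels of 4.62, 3.52 and 2.13, against -1.42, -1.97 and -2.11 (5.26 ± 1.17, adjusted p = 0.034).

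Guca2a, the peptide guanylin, was higher by 2.92 ± 0.59 (adjusted p = 0.0242) and Ffar4, a fatty acid receptor, by 2.06 ± 0.38 (adjusted p = 0.0171). Fgf15, the hormone the ileum releases on bile acid uptake, had levels of -5.10, -2.27 and -0.10 in iISC organoids, against -6.22, -7.47 and -7.65 in crypt organoids, and was not called (4.63 ± 1.38, adjusted p = 0.0878). Of 10 tested colon and hindgut genes 1 was called, Saa3, an acute-phase protein (4.27 ± 0.99, adjusted p = 0.0391). Leaving out an array gave 1 to 5 called ileum genes and 1 to 4 called proximal genes. Among the genes named here, the calls of Foxa1 and Cubn held without any single array, those of Onecut1 and Onecut2 were lost without crypt 2 or crypt 3, that of Onecut3 without iISC 2 or crypt 3, that of Cyp2b10 without crypt 2, and that of Slc10a2 without iISC 2, crypt 2 or crypt 3. The calls of Guca2a and Ffar4 were lost without iISC 2, iISC 3, crypt 2 or crypt 3, and that of Saa3 without any array other than iISC 1.

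**Figure D3:**
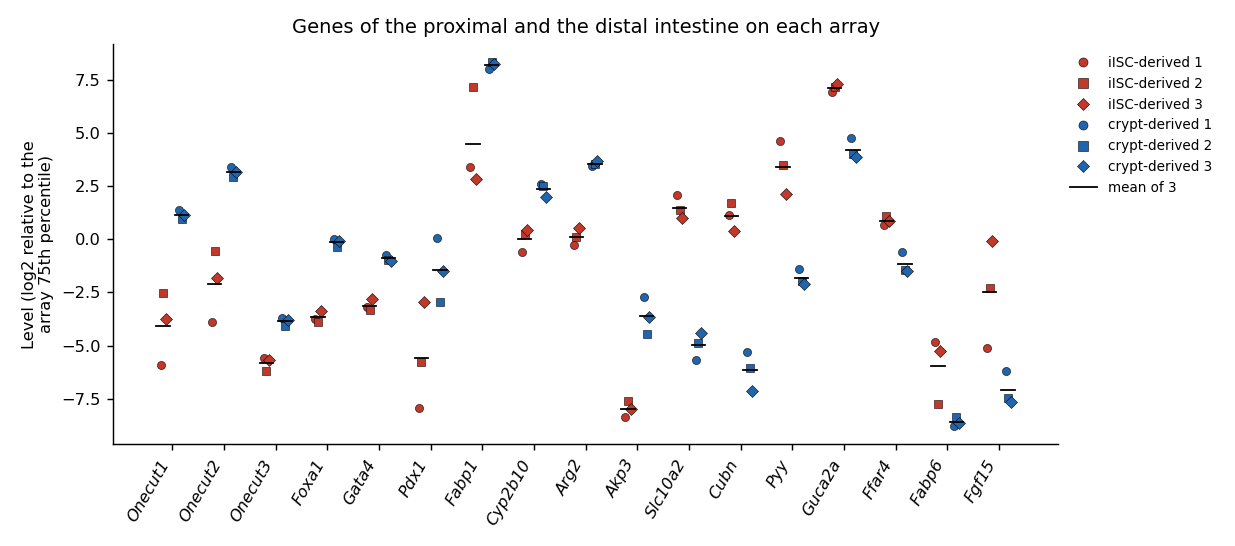
Level of genes of the proximal and the distal intestine (log2 relative to the array 75th percentile) on the 3 iISC arrays (red, left of each gene) and the 3 crypt arrays (blue, right), with the mean of 3 as a line. Onecut1 and Foxa1 are lower and Slc10a2, Cubn and Pyy are higher on every iISC array than on any crypt array.

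Of 55 tested absorptive and brush border genes, 4 fell and none rose (7.27%, against 1.33% of all tested genes called lower), and the median change was -0.53. Alpi, an intestinal alkaline phosphatase, had levels of 1.88, 1.89 and 1.88 in iISC organoids, against 3.83, 4.12 and 4.32 in crypt organoids (-2.21 ± 0.47, adjusted p = 0.0295). Akp3, the duodenal phosphatase, was at background on all iISC arrays and at least 5.68-fold lower (adjusted p = 0.0194). Ace, a brush border peptidase, was lower by 2.08 log2 units and Apob, the protein of lipoprotein particles, by 1.72, the changes being -2.08 ± 0.31 and -1.72 ± 0.40. Sis, the sucrase-isomaltase of mature enterocytes, was not called (0.31 ± 0.69, adjusted p = 0.831). The call of Ace held without any single array, that of Akp3 was lost without iISC 3 or crypt 3, and that of Apob without iISC 2, iISC 3, crypt 2 or crypt 3.

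Of 17 tested genes typical of enterocytes after weaning, 2 were called lower and 1 higher (17.6%, against 3.41% of all tested genes called), with a median change of 0.06. The higher gene was Cubn, which is also on the suckling list below, so the lists are not separate. Arg2, an arginase that rises at weaning, had levels of -0.24, 0.12 and 0.52 in iISC organoids, against 3.45, 3.54 and 3.68 in crypt organoids (-3.42 ± 0.72, adjusted p = 0.0277), and was lower on every iISC array. Of 19 tested genes typical of suckling enterocytes, 3 rose and none fell (15.8%, against 2.08% of all tested genes called higher), with a median change of 0.14. These were Cubn again, Tmigd1, an adhesion protein of the brush border (7.16 ± 1.43, adjusted p = 0.0237), and Neu1, the lysosomal sialidase (1.34 ± 0.30, adjusted p = 0.0347). The calls of Arg2, Alpi and Tmigd1 were lost without any array other than crypt 1, and that of Neu1 without iISC 1, iISC 3, crypt 2 or crypt 3.

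Genes of xenobiotic and glutathione metabolism were lower as far as they were called. Of 48 tested, 7 fell and none rose (14.6%, against 1.33% of all genes called lower), with a median change of -0.38. Beside Cyp2b10 they were the glutathione transferases Gstm6 (-2.17 ± 0.49) and Gstm4 (-1.95 ± 0.45), the glucuronosyltransferases Ugt2b5 (-2.05 ± 0.44) and Ugt2b36, and the cytochromes Cyp2c66 (-1.78 ± 0.34) and Cyp2c65. For Cyp2c66 the levels were 3.96, 4.94 and 4.25 in iISC organoids, against 5.96, 6.33 and 6.20 in crypt organoids, without overlap. Genes of these families are near-identical copies that a probe may not tell apart, so that the single members are uncertain. Without crypt 2 none of the 48 was called, and at most 8 were called when another array was left out.

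Of 33 tested stem cell and Wnt target genes, 2 rose and 1 fell (9.09%, against 3.41% of all tested genes called), and the median change was -0.05. Lgr5, the receptor that marks crypt stem cells, had levels of 3.63, 2.90 and 2.20 in iISC organoids, against 3.68, 2.96 and 3.35 in crypt organoids (-0.42 ± 0.47, adjusted p = 0.645). Olfm4, another stem cell marker, had levels of 3.39, 2.13 and -1.02, against 2.58, 2.87 and 2.88 (adjusted p = 0.539), iISC array 3 being far below the others. Called higher were Lef1, a factor of Wnt transcription (3.33 ± 0.69, adjusted p = 0.0269), and Notum, a secreted enzyme that inactivates Wnt (2.44 ± 0.57, adjusted p = 0.0395). Fstl1, a secreted glycoprotein of mesenchyme, was at background on all iISC arrays and at least 3.9-fold lower (adjusted p = 0.00666). The call of Fstl1 held without any single array. That of Lef1 was lost without iISC 1, iISC 2, crypt 2 or crypt 3, and that of Notum without iISC 1, iISC 3, crypt 2 or crypt 3.

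None of 19 tested Paneth cell genes and none of 7 tested Reg lectins was called, with median changes of -0.10 and 0.88. Lyz1, the Paneth cell lysozyme, differed by 0.24 ± 0.46. Of 25 tested goblet cell genes 1 rose, Guca2a, given above (4.0%, against 2.08% of all tested genes called higher). Muc2, the main secreted mucin, differed by 1.77 ± 0.53 (adjusted p = 0.0904). Of 35 tested enteroendocrine genes 4 rose and none fell (11.4%, against 2.08% of all tested genes called higher), with a median change of 0.59. Beside Pyy they were Nts, the gut peptide neurotensin, with levels of 2.44, 1.47 and 1.73 in iISC organoids, against -1.39, -0.69 and -1.54 in crypt organoids (3.08 ± 0.69, adjusted p = 0.0354), Scg2, a granin of secretory granules (1.79 ± 0.26, adjusted p = 0.00634), and Cck, the hormone cholecystokinin (1.67 ± 0.39, adjusted p = 0.0394).

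Chga, the general enteroendocrine granin, was not called (0.46 ± 0.43), with overlapping groups. Crypt array 1 was the highest crypt array for Chga, Scg2 and Cck. The call of Scg2 held without any single array, while that of Nts was lost without any one of the 6, and those of Cck and Pyy were lost without any array other than crypt 1. Of 21 tested tuft cell genes 2 rose (9.52%, against the same 2.08%), Rgs13, a regulator of G protein signals (1.88 ± 0.28, adjusted p = 0.00666), and Fyb, an adaptor protein (adjusted p = 0.0463), and the call of Fyb was lost in 17 of 18 other settings.

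Genes known from fetal intestinal spheroids, the cystic form in which fetal gut epithelium grows, leaned upwards. Of 25 tested, 7 rose and none fell (28%, against 2.08% of all tested genes called higher), the median change was 1.91, and 24 of the 25 changes were above 0. Anxa8, an annexin, had levels of -1.36, 0.93 and 2.50 in iISC organoids, against -2.44, -5.95 and -5.41 in crypt organoids (5.29 ± 1.16, adjusted p = 0.0333). Anxa1, another annexin, had levels of 0.98, 2.29 and 3.88, against 0.88, -2.16 and -2.31 (3.58 ± 0.87, adjusted p = 0.0445). S100a6, a calcium-binding protein, had levels of 5.88, 6.88 and 7.55, against 4.63, 4.08 and 4.15 (2.48 ± 0.58, adjusted p = 0.0404). For these genes iISC array 1 lay nearest to the crypt arrays and crypt array 1 nearest to the iISC arrays, so that the spread within the groups was wide. Their calls were lost without iISC 2, iISC 3, crypt 2 or crypt 3.

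Ccn2, a matrix protein that YAP induces, was higher by 2.96 ± 0.52 (adjusted p = 0.0146) and Anxa5 by 1.75 ± 0.37 (adjusted p = 0.0288). Ereg, the EGF family ligand epiregulin, was at background on all crypt arrays, so that its rise was at least 8.87-fold (adjusted p = 0.00651), and its call held without any single array. Ly6a, the surface marker known as Sca-1, had levels of -0.96, 1.07 and 2.62, against -0.26, -3.91 and -3.42 (3.44 ± 1.18, adjusted p = 0.128), and the groups overlap. Clu, the chaperone clusterin, overlapped as well (adjusted p = 0.344). The number of called fetal spheroid genes hung on the crypt arrays, being 13 without crypt 1 and 1 without crypt 2. The call of Ccn2 was lost without iISC 3 or crypt 2, and that of Anxa5 without iISC 2, iISC 3, crypt 2 or crypt 3. With slide as a term all 25 kept their direction, their median change was 2.38 and none was called.

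**Figure D4:**
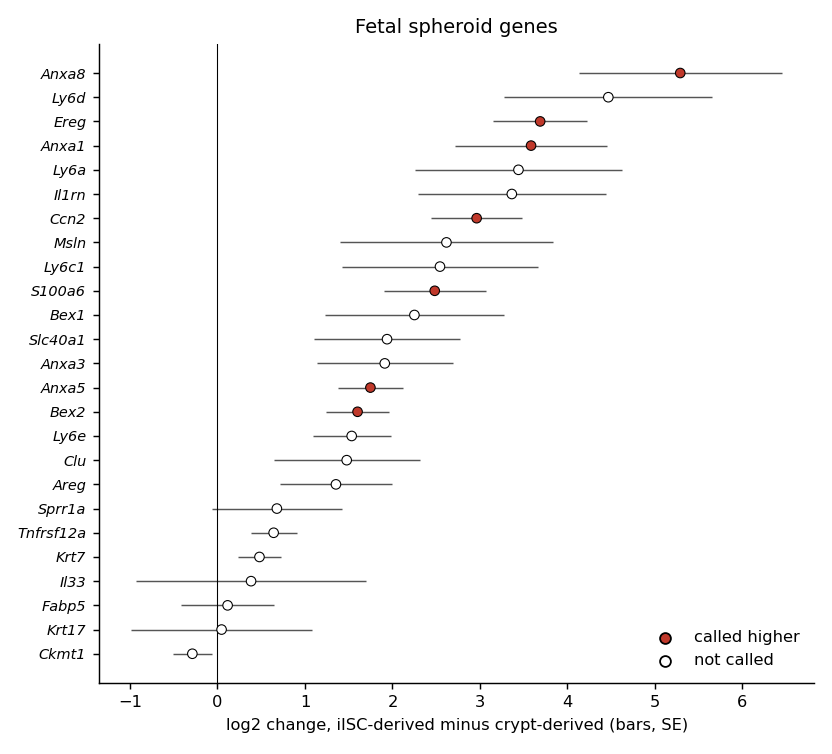
Change of the 25 tested fetal spheroid genes (log2, iISC minus crypt organoids, bars are SE), with the 7 genes called higher filled in red. All changes lie above 0 except that of Ckmt1, at -0.29, and the SE of Anxa8 is 1.16.

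Of 21 tested YAP target genes 4 rose and none fell (19%, against 2.08% of all tested genes called higher), with a median change of 0.98. Ccn2, Ereg and Anxa1 belong to both lists, and the fourth was Tead4, a DNA-binding partner of YAP (2.73 ± 0.54, adjusted p = 0.023), a call lost without iISC 2, iISC 3, crypt 2 or crypt 3. Of 17 tested imprinted and oncofetal growth genes none rose, and 1 fell (5.88%, against 1.33% of all tested genes called lower). That was Afp, alpha-fetoprotein, with levels of -4.11, -4.33 and -2.38 in iISC organoids, against 1.08, 1.96 and 2.56 in crypt organoids (-5.47 ± 0.94, adjusted p = 0.0131), and all iISC arrays lay below all crypt arrays. Its call was lost without crypt 2 or crypt 3. Igf2, the fetal growth factor, had a level of 4.27 on iISC array 3, against -1.31 and -2.77 on iISC arrays 1 and 2 and -0.74, -3.20 and -3.14 on the crypt arrays.

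None of the tested genes on the list of fibroblast markers was called, while Ddr2 and Fstl1, genes of mesenchyme outside it, were called higher and lower. Of 46 fibroblast and mesenchyme genes 15 were tested, 24 were above background on none of the 6 arrays, and the median change of those tested was -0.09. Of the 15, 7 had a change above 0 and 8 below, and for 9 the groups did not overlap (against 25.5% of all tested genes). Snai2, a member of the list, was at background on all iISC arrays and at least 29.8-fold lower, but missed the threshold (adjusted p = 0.0539). Col1a1, the chain of type I collagen that defines fibroblasts, was well above background on no array, and Vim, the mesenchymal filament vimentin, had levels of -0.35, -0.41 and -0.75 in iISC organoids, against -0.08, -0.22 and -0.10 in crypt organoids. The log2 of the summed level of the list was 3.11 to 3.40 on the iISC arrays and 3.14 to 3.59 on the crypt arrays. The mean level over the 46 genes was -6.22 to -6.11 on the iISC arrays and -6.62 to -6.37 on the crypt arrays, without overlap. That mean includes the 24 genes above background on no array. None of 8 smooth muscle and none of 5 endothelial genes was called. Of 10 tested immune genes 1 was called, Csf1r, the macrophage colony factor receptor, at background on all iISC arrays and at least 3.09-fold lower (adjusted p = 0.0052).

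Genes of the Gimap family, which encode small GTPases, are best known from lymphocytes. Of 4 tested, 2 fell (50%, against 1.33% of all tested genes called lower), and the median change was -3.32. Gimap5 had levels of -8.77, -6.66 and -8.40 in iISC organoids, against 0.55, -0.67 and -0.04 in crypt organoids. On this brightest probe it was at least 66.9-fold lower (adjusted p = 0.000962). Both tested probes of Gimap5 were called lower, with changes of -7.89 and -3.22. Gimap1 had levels of -3.15, -4.43 and -4.28, against 1.09, 0.43 and 0.45 (-4.61 ± 0.33, adjusted p = 0.000121). Both were apart on every array, while the summed level of the immune list overlapped between the groups, its log2 being 7.01 to 7.30 on the iISC arrays and 7.22 to 7.32 on the crypt arrays. That sum rests mostly on the brightest member, with a mean level of 7.17 in iISC and 7.24 in crypt organoids, and says little of the others. The mean level over the list was -5.31 to -5.23 in both groups.

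None of 31 interferon response, 25 cholesterol synthesis, 18 Notch pathway, 11 chemokine and 36 cell cycle genes was called. Of the cell cycle genes 31 had a change below 0, with a median of -0.30, and Mki67, the proliferation antigen, differed by -0.16 ± 0.24. Among the retinoid genes 2 of 15 rose (13.3%, against 2.08% of all tested genes called higher), including Aldh1a3, which makes retinoic acid (at least 16.1-fold higher, adjusted p = 0.028). Fzd1, a Wnt receptor, was the one called gene of 20 (5.0%) in the Wnt ligand and receptor list (2.81 ± 0.46, adjusted p = 0.0108). Id3, a target of BMP signals, was the one of 24 (4.17%) in the BMP and TGF-beta list (1.93 ± 0.40, adjusted p = 0.027). Both shares stand against the same 2.08%. Saa2, an acute-phase protein with a near-identical relative, was the one gene called higher among 22 of the hepatocyte list (8.57 ± 1.68, adjusted p = 0.0214). Afp and Apoa2, an apolipoprotein, were called lower there (13.6% of the list called, against 3.41% overall). Of 7 tested germline and placenta genes, 2 fell (28.6%, against 1.33%). They were Tdrd1, of the germline small RNA pathway (-3.96 ± 0.96, adjusted p = 0.0454), and Ddx4, the germ cell helicase, at background on all iISC arrays and at least 1.93-fold lower (adjusted p = 0.0141). The call of Apoa2 held without any single array, that of Ddx4 was lost without crypt 3 and that of Tdrd1 without iISC 2, crypt 2 or crypt 3. The calls of Aldh1a3 and Saa2 were lost without iISC 2, iISC 3, crypt 2 or crypt 3, that of Id3 without iISC 1, iISC 3, crypt 2 or crypt 3, and that of Fzd1 without crypt 3.

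Genes outside these lists were among the largest rises. Slc5a8, a monocarboxylate transporter, had levels of 3.17, 1.71 and 2.05 in iISC organoids, against -5.76, -5.17 and -6.27 in crypt organoids (8.04 ± 1.64, adjusted p = 0.0254). Bex4, of a small X-linked family, had levels of 2.16, -0.05 and 0.75, against -6.13, -6.74 and -6.01 (7.25 ± 0.88, adjusted p = 0.00263). Ddr2, a collagen receptor of mesenchymal cells, had levels of 0.01, 0.75 and -1.77, against -8.10, -6.88 and -6.58 (6.85 ± 0.66, adjusted p = 0.000962). Each lay higher on every iISC array than on any crypt array. Pmp22, a myelin and junction protein, was higher by 5.98 ± 0.64 (adjusted p = 0.00136), and Mkx, a homeobox factor of tendon, was at background in crypt organoids, for a rise of at least 29.8-fold (adjusted p = 0.000272). The rise of Cdh13, a lipid-anchored member of the cadherins, was at least 27.3-fold (adjusted p = 0.00845) and that of Akr1c18, a progesterone-metabolising reductase, at least 38.5-fold (adjusted p = 0.0052). Of these genes only Slc5a8 lost its call when 1 array was left out, namely any array other than crypt 1.

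Among the largest falls outside the lists, Sdr16c5, a retinol dehydrogenase, was at background on all iISC arrays and at least 10-fold lower (adjusted p = 0.000821). Slc1a3, a glutamate transporter, was at least 27.7-fold lower (adjusted p = 0.03), and its call was lost without any array other than crypt 1. With slide as a term its change was only -1.44 ± 1.87, against -6.92 without the term. F10, the clotting factor X, was at least 17.9-fold lower (adjusted p = 0.00617), and its neighbour Proz, protein Z, was lower on every iISC array than on any crypt array (-4.20 ± 0.63, adjusted p = 0.0078). The calls of Sdr16c5, F10 and Proz held without any single array. With slide as a term their changes were -5.69, -6.28 and -6.3, and of these only Sdr16c5 was called.

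Neighbouring called genes formed 40 runs, 22 higher and 18 lower, that held 91 of the 464 called genes. The longest was a run of 6 UDP-glucuronosyltransferase genes on chromosome 5, Ugt2b36, Ugt2b5, Ugt2b37, Ugt2a3, Ugt2b38 and Ugt2a1, all lower, and Ugt2a1 changed most, by -2.62. The next was the run of Hoxa7, Hoxa9, Hoxa10, Hoxa11 and Hoxa13 on chromosome 6, all higher. Runs of 3 lower genes were Alppl2, Alpi and Akp3 on chromosome 1 and Cyp2b10, Cyp2b13 and Cyp2b9 on chromosome 7. Runs of 3 higher genes were Gml, Gml2 and Ly6m on chromosome 15 and Mgat4c, Nts and Rassf9 on chromosome 10. Probes of the Ugt2, alkaline phosphatase and Cyp2b families may share signal between near-identical copies, so that these runs may count 1 signal more than once. The Hox, Mgat4c, Foxa1 and F10 runs do not consist of such copies.

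The fetal-type pair, iFIPC against FI organoids, sets another induced kind of organoid beside this one and shares no array with it. The titles do not say whether the induced kinds came from separate conversions. Both pairs also share slides and the same fit, so genes called in both are no independent replication. In that pair 10.6% of 14376 tested genes were called, 5.66% higher and 4.98% lower. Of the 275 genes called higher in iISC organoids and tested in the fetal-type pair, 84 (30.5%) were also called higher in iFIPC organoids and 20 lower. These 84 are 10.3% of the 814 genes called higher in iFIPC organoids. Of 167 genes called lower, 51 (30.5%) were called lower in iFIPC organoids too and 3 higher, and the 51 are 7.1% of 716. The difference between the changes of the 2 pairs was itself called for 76 of the genes called higher and 52 of those called lower, among 755 of 14511 genes (5.2%) for which it was called in all, 3.23% with a positive and 1.98% with a negative difference.

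Some positional genes were called in the same direction in both pairs. Hoxa11 and Tbx15 were higher in iISC and in iFIPC organoids. As crypt organoids were at background for both, and FI organoids for Tbx15, the sizes of their changes cannot be compared. Foxa1, measured on all arrays, changed by -3.53 and -3.83, and the difference was not called. Hoxa9 rose in both pairs, by 3.48 and 4.53, and the difference of -1.05 was called (adjusted p = 0.0222). Pitx1 also differed. Its change was -9.59 in the adult-type pair, where only 1 iISC array was above background, and 0.20 in the fetal-type pair (difference -9.79, adjusted p = 0.00628), and it had levels of 3.03, 1.94 and 1.93 in iFIPC organoids, against 2.53, 1.30 and 2.47 in FI organoids.

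Some other genes were called in opposite directions. Scg2 rose by 1.79 in iISC organoids but fell by 2.04 on the log2 scale in iFIPC organoids (difference 3.83, adjusted p = 0.00147), and Cck likewise changed by 1.67 and -1.75 (difference 3.42, adjusted p = 0.0109). Bex4 changed by 7.25 in the adult-type pair and by -2.74 in the fetal-type pair (difference 9.98, adjusted p = 0.0051). Fstl1 was called lower in iISC organoids, where it was at background, and higher in iFIPC organoids. For other genes a call was made in 1 pair alone and the difference was called. Cubn, higher in iISC organoids by 7.24, had a change of 1.37 in the fetal-type pair that was not called, where its levels were 0.09, 2.66 and 2.70 in iFIPC organoids, against 2.15, -1.66 and 0.85 in FI organoids (difference 5.87, adjusted p = 0.0383). Cdx2, not called in the adult-type pair, fell by 2.08 on the log2 scale in iFIPC organoids (difference 2.23, adjusted p = 0.00654).

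**Figure D5:**
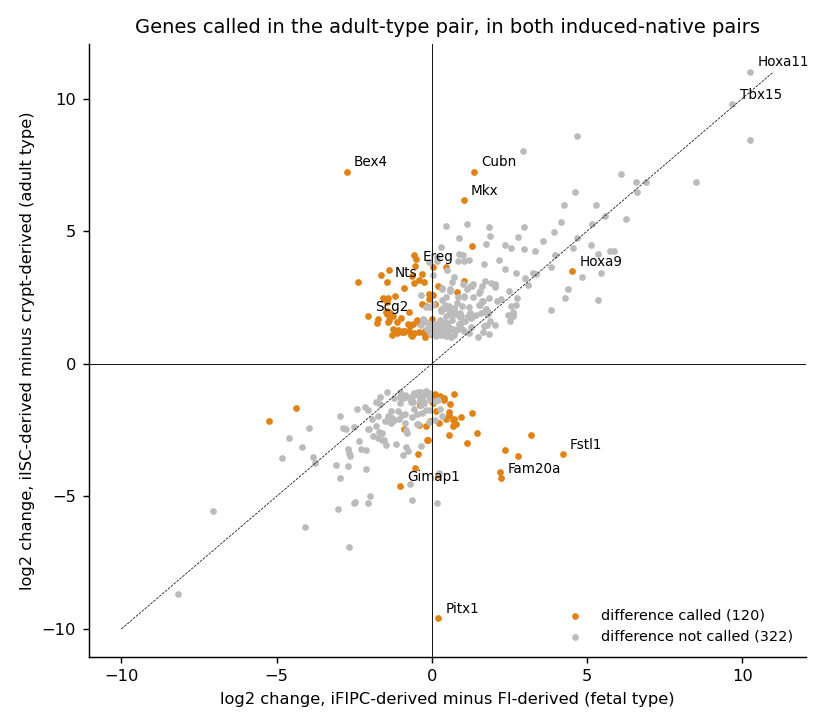
Changes of the 442 genes called in the adult-type pair and measured in the fetal-type pair, as log2 iISC minus crypt organoids (vertical axis) and log2 iFIPC minus FI organoids (horizontal axis), with the 120 genes whose difference was called in orange and the other 322 in grey. Hoxa9, at 4.53 on the horizontal and 3.48 on the vertical axis, lies below the dashed line of equal change, and Pitx1 lies at 0.20 on the horizontal and -9.59 on the vertical axis.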

How the data were processed

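RNA was extracted with TRIzol, labelled with Cy3 and hybridised to Agilent Whole Mouse Genome arrays, per the labels' protocols. The authors deposited 1 scanner file per array, in which the processed signal is a linear intensity with background subtracted and no scaling across arrays, beside mean and background intensity columns, per the file headers. The deposited flags (well above background, outlier, saturated) are other columns coded 0 or 1, per the file headers. Feature Extraction 10.7.1.1 made the organoid files, per the file headers, while the submitters' processing notes give 9.5.1.1. The authors' normalised intensity table served as an alternative.

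Of 45018 features per array, 41174 were gene probes. Outlier spots were left out (66 to 101 per array) and no gene probe was saturated. Log2 signals were centred on the 75th percentile of each array. Probes were named by RefSeq accession (24806), symbol (6035) or synonym (1806), and 8462 stayed unnamed. Of the 19701 genes, 8585 had more than 1 probe and were represented by that with the highest mean over the 12 organoid arrays. Of the 113 genes the naming rule gave, 46 had several probes, which differed in sign for 2, Hnf4a and Gata6.

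Tests were run on genes whose probe, on all arrays of at least 1 of the groups compared, was well above background. limma 3.58.1 in R 4.3.3 (lmFit, eBayes, two-sided) fitted 1 mean per group over the 12 organoid arrays. "At least N-fold" sets the mean of the bright group against the dim group, each dim array taken at the higher of its own level and the lowest level it shows among its probes flagged well above background. An exact permutation of 3 against 3 arrays cannot go below p = 0.1. The number of arrays limits the precision. On simulated data for iISC against crypt organoids over 13603 genes, 82% of changes of 1.5 log2 units and 86% of changes of 2 were recovered, and none of 13403 unchanged genes was called. The simulated arrays had independent noise and no slide effect. The run therefore cannot tell how many of the real calls come from slides.

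The rule named anchor genes, called Hox and limb genes, up to 6 called members of each other list, the 20 largest rises and falls without overlap, and genes on in 1 group and off in the other. Other genes of a list, and genes high on 1 array, were named after their values were seen. Some genes that the rule or the lists hold are not reported here. The members and lists were chosen with earlier results of these data known. Alternatives were the normalization, background correction, filter, probe summary, arrays in the fit, slide, replicate number and each array left out. The replicate numbers do not pair the arrays, as same-numbered arrays had deviations correlated at -0.251, -0.106 and -0.211.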

Additional observations from a re-analysis of the deposited data

Results flagged for a closer look

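For 24 of the 113 named genes, the change between iISC and crypt organoids differed from the change between iFIPC and FI organoids by the test of the difference itself (limma, adjusted p under 0.05 and a difference of at least 1 log2 unit). Over all 14511 genes tested the difference was called for 5.2%. Of the 113, 95 were called in the adult-type pair, and most were named for their change in it. That change is part of the difference, so the choice of genes raises their share. Each value given here is the adult-type change minus the fetal-type change, in log2 units. It was above 0 for Bex4 (9.98), Cubn (5.87), Mkx (5.14), Nts (4.53), Akr1c18 (4.30), Ereg (4.23), Scg2 (3.83), Cck (3.42) and Cdx2 (2.23). It was below 0 for Pitx1 (-9.79), Fstl1 (-7.63), Fam20a (-6.53), Gimap5 (-6.29), Slco3a1 (-6.27), Ppef1 (-5.61), Ifi47 (-4.83), Proz (-4.39), Gimap1 (-3.60), Cyp2b23 (-3.24), Cyp2b10 (-3.01), Ovol2 (-2.11), Cyp2c66 (-1.90), Csf1r (-1.72) and Hoxa9 (-1.05). For Mkx, Akr1c18, Ereg, Fstl1, Gimap5, Csf1r, Ifi47, Cyp2b23 and Ppef1, 1 group of the adult-type pair was at background on all its arrays, so that the value rests on background levels and is no measured size. The same holds in part for Pitx1, above background on 1 iISC array, and for Bex4 and Cubn, above background on 2 crypt arrays. With slide as a term, the difference was called for 61 genes in all, against 755 without it, and the part of the slide in these differences was not tested further.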

How the results depend on the processing

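None of the 464 calls changed direction under any alternative in which the gene was tested. Quantile normalization called 445 genes, median centring 452, normexp 310, the authors' values 438, no filter 362, the mean over probes 439, the 6 arrays alone 339 and slide as a random block 339. A term for the arrays with high Xist, added after seeing the data, gave 366. Counts moved further with the filter above background on every array (292), adjusted p alone (716) and slide as a fixed term (36, of which 44.4% higher, against 61% without the term). Leaving out 1 array gave 162 to 660 calls, namely 162 without crypt 2, 168 without crypt 3, 278 without iISC 3, 290 without iISC 2, 436 without iISC 1 and 660 without crypt 1, the lone pair of a group being assumed to vary like the other groups. With the replicate number as a block, 80 genes were called, and whether the numbers pair the arrays is not known. The count of differing changes between the pairs was 61 with slide as a fixed term, against 755. Of 95 called genes named, 10 kept the call with slide as a fixed term, 27 with the replicate block, 37 without crypt 2 and 35 without crypt 3. The calls of Tbx15, Hoxa11, Hoxa9 and Gimap1 were kept in every setting run on them. The HoxA list had 2 called genes with slide as a fixed term, against 6, and the ileum list 0, against 5. Causes were not tested.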

Other observations

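Some genes were high on a single array, at least 4 log2 units above the other 5 arrays, and were picked for this after their values were seen. There were 5 on iISC array 1, 9 on iISC array 2, 20 on iISC array 3, 2 on crypt array 1, 1 on crypt array 2 and 6 on crypt array 3. On iISC array 2 they include 5 HoxB genes, and Hoxb7 was also highest on array 2 among the iFIPC arrays, at -0.55, against -3.46 and -7.69. On FI arrays 1, 2 and 3 Hoxb7 had levels of 2.22, -6.13 and 0.52, so there it was lowest on array 2. On iISC array 3 they include the chemokine Cxcl5 (1.18), the secreted phosphoprotein Spp1 (0.19), the antiproteases Wfdc2 (3.92) and Slpi (-0.39), and Igf2 (4.27). On crypt array 1 Nkx6-3, a homeobox factor of the stomach, had a level of 0.88, against -7.31 or less on the other 5 arrays. With 1 array each, none of these was tested.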
